A study of Mus musculus with 8 samples.

Results

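The genes described here encode RNA polymerase II, the Mediator complex and the general transcription factors of the mouse. They were chosen by name as the genes of the array whose name begins with Polr2, with Med or Taf followed by a digit, or with Gtf2. This gave 81 of 36163 gene names and 116 of 55681 probes, namely 12 Polr2 genes, 30 Med genes, 23 Taf genes and 16 Gtf2 genes. No measured value was used for the choice. The prefix also brought in Taf1a, Taf1b, Taf1c and Taf1d of the RNA polymerase I factor SL1, and Taf15, an RNA-binding protein of the FET family.

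RNA polymerase II transcribes the protein-coding genes of the nucleus and cannot find a promoter by itself. TFIID, made of the TATA-binding protein and the TAFs, recognizes the promoter, and TFIIA, TFIIB, TFIIE, TFIIF and TFIIH then build the initiation complex around the polymerase. Mediator carries signals from enhancer-bound factors to this complex through its tail, middle and head modules, and a detachable kinase module restrains it. Argonaute (Ago) proteins are the core of the RISC complex, which is guided by miRNAs to mRNAs and represses them, so RNA recovered with Ago can be set beside total RNA for each mRNA.

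The cells were E14Tg2A embryonic stem (ES) cells of strain 129/Ola, kept in serum with LIF and collected at 0 days in vitro (DIV), or differentiated toward neurons in chemically defined medium. They were collected as floating epiblast-like aggregates (ELA) at 2 DIV, as adherent neural progenitors at 6 DIV (NPC) and, at 10 DIV, as neural precursors named NPC/Neu, and the labels give no group a genetic change. At each stage, 1 array received total RNA and 1 array received RNA immunoprecipitated with the pan-Ago antibody 2A8 (Ago–RNA), which makes 8 arrays. By the authors' methods the immunoprecipitation used the cytosolic fraction, and none of the 8 arrays held RNA from a control IgG. The part of nuclear RNA or of nonspecific recovery in the values below was not tested. Each array held RNA pooled from 3 independent experiments, from a single cell line. No condition had a replicate, so no p-value can be given, and precision is limited by the number of arrays.

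The 8 arrays lay on the same slide, and on each of them the scanner software called 53.4% to 61.2% of spots well above background and no spot saturated. The ES Ago–RNA array was the brightest, with an upper quartile of the mean signal of 3039 against 1060 to 1774 on the others, and its part in the differences below was not tested. Differences between arrays in overall RNA recovery are not kept by quantile normalization, which makes their distributions equal. Total RNA of the naive pluripotency markers Nanog, Zfp42, Klf4, Esrrb, Nr0b1 and Fgf4 was highest in ES cells, and the neural markers Sox1, Pax6, Nes, Tubb3 and Dcx were highest in NPC/Neu cells. Each of these naive markers was also higher in NPC/Neu than in NPC cells, most of all Esrrb (log2 signal 11.55, against 9.59). Of the epiblast markers, Fgf5 and Otx2 were highest in ELA cells, but Eomes was highest in NPC/Neu cells (log2 signal 11.33, against 9.29 in ELA cells). Of the markers of endoderm and mesoderm, Gata6 and Mixl1 were not well above background at any stage, Gata4 (highest 7.66, ELA) and Sox17 (8.08, NPC) were so at 3 stages, and T (9.73, NPC) at all 4. Of the glial markers, Gfap was well above background at all 4 stages but stayed below 7, and Olig2 reached 9.31 in NPC/Neu cells. The part of such cells in the results below was not tested. In bulk RNA, fewer cells of a type and less RNA per cell cannot be told apart.

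Ago enrichment (E) is the log2 signal of Ago–RNA minus the log2 signal of total RNA at the same stage, and ΔE is its change between stages. A value of 1 is a doubling, and differences of at least 1 on the log2 scale are described below as past the fold limit. Among 399 probes printed in 10 spots on each array, the SD of E between spots was 0.13 to 0.15, that of ΔE 0.18 to 0.21 and that of the change in total RNA 0.13 to 0.18. These SDs cover only the noise between spots, not the variation between cultures or immunoprecipitations. Of the 81 genes, 78 had a probe well above background on all 8 arrays, as did 18441 of all gene names. The exceptions were Med12l, a paralog of the kinase module subunit Med12 (above background on 1 array), Gtf2a1l, a germ cell paralog of TFIIA (2 arrays), and Taf4b, a gonadal paralog of Taf4 (3 arrays). Of the 116 probes, 109 were well above background on all 8 arrays and 2, of Med8 and Taf12, on none.

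The arrays detect each mRNA with probes of 60 bases. The probes behind the highest and the lowest enrichment in ES cells, those of the Mediator mRNAs Med28 and Med6, enriched in ELA cells, and a pair that disagrees are shown here in lower case, 5′ to 3′ in the sense of the mRNA. Each lies in coding sequence (mm9), apart from the last 3 bases of the first Taf9 probe, which follow the stop codon. The Polr2b probe (chr5:77777349-77777408, plus strand) also matches a transcript named AC141469.5. The Polr2a probe (chr11:69547912-69547971, minus strand) ends at the stop codon. The Med21 probe lies at chr6:146598660-146598719 (plus strand), the Med28 probe spans an intron between chr5:45913735 and 45914713 (plus strand), and the Med6 probe lies at chr12:82680558-82680617 (minus strand). The 2 probes of Taf9 lie at chr13:101425744-101425803 and chr13:101435915-101435974 (plus strand).
Polr2b: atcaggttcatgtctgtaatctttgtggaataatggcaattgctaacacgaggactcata
Polr2a: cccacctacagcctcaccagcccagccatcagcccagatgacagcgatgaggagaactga
Med21: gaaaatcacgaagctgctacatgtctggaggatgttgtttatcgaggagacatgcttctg
Med28: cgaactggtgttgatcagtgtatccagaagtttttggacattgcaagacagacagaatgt
Med6: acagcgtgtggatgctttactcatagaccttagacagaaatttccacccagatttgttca
Taf9, first probe: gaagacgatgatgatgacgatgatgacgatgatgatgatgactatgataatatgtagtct
Taf9, other probe: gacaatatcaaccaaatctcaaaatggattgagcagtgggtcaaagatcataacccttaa

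In ES cells the mRNAs of the transcription machinery were spread widely over Ago enrichment, from -2.19 for Med21 to 2.74 for Polr2b, with a median of -0.01. In ELA cells the spread was much smaller, and the SD across the 81 genes was 0.94 at ES, 0.46 at ELA, 0.66 at NPC and 0.86 at the NPC/Neu stage. Across all genes well above background the SD took a similar course, at 0.88, 0.52, 0.68 and 0.94, so this course was not particular to the members. The mRNAs of the large catalytic subunits of RNA polymerase II, of the TFII-I family and of the Mediator tail were high in ES cells, while those of small polymerase subunits and of the Mediator middle module were low. The order of the genes in ES cells was largely that in NPC/Neu cells (Spearman's rho 0.82 across 81 genes, against 0.78 across all genes well above background, as a description).

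Enrichment of at least 1 was found in ES cells for 11 members and of -1 or lower for 11 members, against 6.56% and 7.34% of all gene names. Among genes well above background, where small and noisy signals weigh less, 23.7% lay past the limit either way, against 28.2% of the 78 members measured there. In ELA cells, 3 members lay at 1 or higher (Med31, Med6 and Med28) and 0 at -1 or lower (background 2.43% and 2.12%). The counts were 7 and 4 in NPC cells (background 3.59% and 3.89%) and 7 and 9 in NPC/Neu cells (background 7.34% and 7.78%). Either way, 3.70%, 13.6% and 19.8% of the 81 members lay past the limit in ELA, NPC and NPC/Neu cells. Among genes well above background the shares were 5.81%, 11.4% and 24.1%. The heat map of enrichment shows ES and NPC/Neu cells as the most strongly colored columns and ELA cells as the palest.

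**Figure D1:**
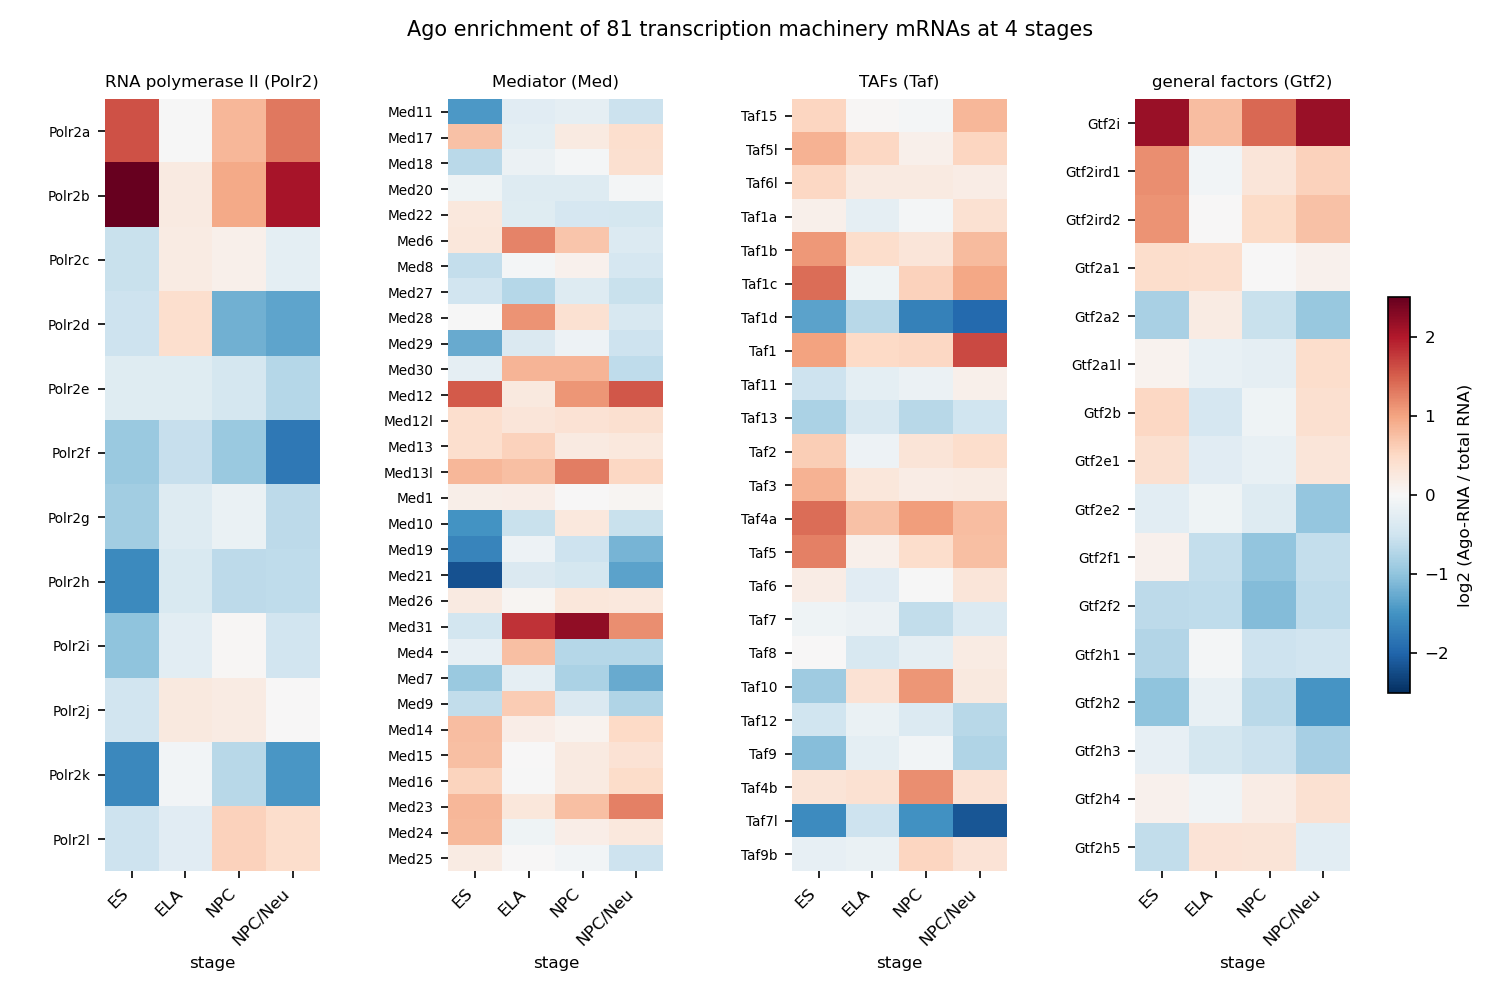
Ago enrichment, log2 (Ago–RNA / total RNA), of the 81 genes (rows) at the 4 stages (columns), with 1 array pair per column. Polr2b (2.74) and Gtf2i (2.16) are the reddest cells in ES, Med21 (-2.19) is the bluest, and Med31 is the reddest in ELA (1.80) and NPC cells (2.23). Polr2b lies past the end of the color scale.

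From ES to ELA cells, ΔE was at least 1 for 12 members and -1 or lower for 8, against 5.14% and 4.41% of all gene names. Among genes well above background, 14.9% were past the limit either way, and of the 78 members measured there 25.6% were. The 12 that gained were the polymerase subunits Polr2h and Polr2k, the Mediator subunits Med9, Med11, Med19, Med21, Med28, Med30 and Med31, the TFIID subunits Taf10 and Taf7l, and Gtf2a2 of TFIIA. The 8 that lost were Polr2a, Polr2b, Med12, Taf5, Taf1c, Gtf2i, Gtf2ird1 and Gtf2ird2. Under 7 other ways of processing, 19 or 20 of these 20 genes were again past the limit in the same direction. For 18 of the 20, Ago–RNA changed more than total RNA, the exceptions being Gtf2i and Med12. At the later transitions few members moved. From ELA to NPC cells 0 gained and 5 lost (background 1.89% and 2.45%), and from NPC to NPC/Neu cells 2 gained and 3 lost (background 1.71% and 3%). Either way, 6.17% of the members passed at each of these steps, against 4.55% and 5.79% of genes well above background.

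Within RNA polymerase II, the mRNAs of the 2 large subunits, which together form the catalytic cleft, stood apart from the other 10. For Polr2b, total RNA gave log2 signals of 14.25, 14.11, 14.25 and 13.90 in ES, ELA, NPC and NPC/Neu cells, and Ago–RNA gave 16.99, 14.34, 15.20 and 15.96. Total RNA was thus nearly level, while Ago–RNA was high in ES cells, lowest in ELA cells and high again in NPC/Neu cells. E was 2.74, 0.23, 0.95 and 2.06, so that ΔE was -2.51 from ES to ELA and 1.11 from NPC to NPC/Neu cells. For Polr2a, whose C-terminal repeats couple transcription to RNA processing, total RNA was 11.27, 11.50, 10.59 and 11.18 and Ago–RNA was 12.86, 11.50, 11.41 and 12.50. E was 1.60, -0.00, 0.82 and 1.32, the same course at a smaller size, with ΔE of -1.60 from ES to ELA.

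All 10 other polymerase subunits had negative E in ES cells (median -0.71), as had 8838 of 18441 genes well above background. The sign of the 10 held under each other scaling. The lowest were Polr2k (-1.61), Polr2h (-1.59) and Polr2i (-1.01), followed by Polr2f (-0.92), while Polr2e (-0.31) and Polr2j (-0.49) were nearest to 0. All 10 had positive ΔE from ES to ELA (median 0.74), as had 8992 of 18441 genes well above background. Of the 10, only Polr2k (1.54) and Polr2h (1.21) passed the limit. Polr2e (0.00) lay at 0, and below 0 when only the brightest probe was read. Polr2k, Polr2h, Polr2e, Polr2f and Polr2l also serve RNA polymerases I and III, and their median E was -0.92 in ES and -0.31 in ELA cells. For Polr2k, total RNA was 15.72, 15.43, 15.50 and 15.20, and Ago–RNA was 14.11, 15.36, 14.81 and 13.75, highest in ELA cells. The stalk subunit Polr2d, which with Polr2g binds the emerging transcript, had E of -0.52, 0.41, -1.20 and -1.32, and its ΔE of -1.62 from ELA to NPC cells was the lowest of the members at that step. Besides the probe of Polr2b, 1 of the 2 probes of Polr2l also matches another gene, Usp50.

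**Figure D2:**
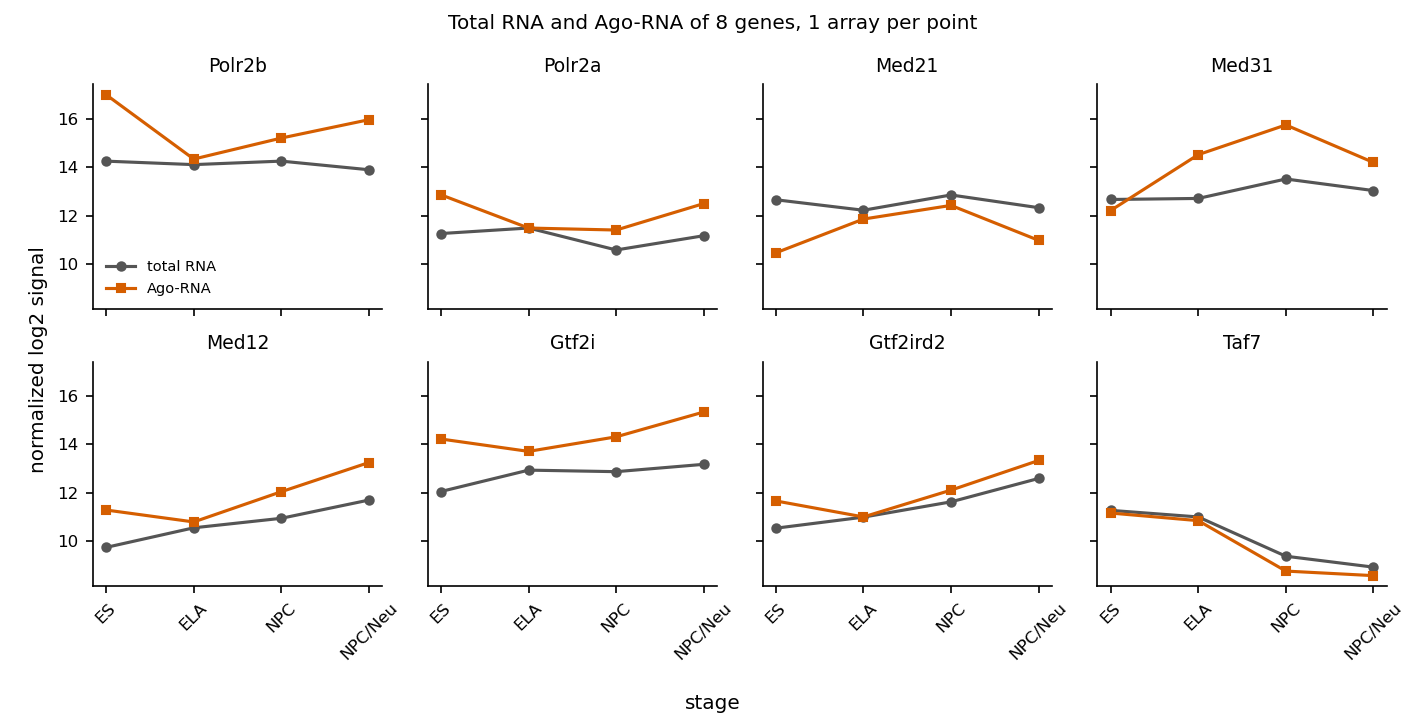
Normalized log2 signal (vertical axis) of total RNA (grey circles) and Ago–RNA (orange squares) at the 4 stages for 8 genes, where each point is 1 array averaged over the gene's probes. Ago–RNA of Polr2b drops from 16.99 to 14.34 between ES and ELA cells while total RNA stays near 14, and Ago–RNA of Med31 climbs from 12.22 to 15.74 in NPC cells.

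Of the Mediator modules, the tail and most of the middle differed in direction, while the head was mixed both in E in ES cells and in ΔE toward ELA cells. The 5 tail subunits, which receive most activators, all had positive E in ES cells (Med23 0.83, Med24 0.81, Med15 0.74, Med16 0.56, Med25 0.20). All 5 had lower E in ELA cells, with a median ΔE of -0.58. Of 18441 genes well above background, 9603 had positive E in ES cells and 9449 had lower E in ELA cells. Scaling of the processed signal to its 75th percentile left 4 of 5 positive in ES cells and 4 of 5 lower in ELA cells, and 0 of the 5 passed the limit. Med14, the scaffold that joins the modules, had E of 0.76, 0.17, 0.08 and 0.50.

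The middle module, which contacts the polymerase, ran the other way. Of its 9 subunits, 7 had negative E in ES cells (median -0.62) and 8 had positive ΔE from ES to ELA (median 0.95). Of 18441 genes well above background, 8838 and 8992 did so. In the module, Med31, Med21, Med19 and Med9 passed the limit in ΔE. Quantile normalization of the Ago–RNA and total RNA arrays apart left 5 of 9 negative in ES cells and 8 of 9 positive in ΔE. For Med21, total RNA was 12.66, 12.23, 12.86 and 12.33, and Ago–RNA was 10.47, 11.87, 12.43 and 10.99. Ago–RNA was thus lowest in ES cells, and E was -2.19, -0.36, -0.43 and -1.35. Med19 followed the same course (E -1.65, -0.12, -0.51 and -1.17). Med10 (-1.50, -0.55, 0.27 and -0.56) also gained toward ELA cells, just inside the limit with ΔE of 0.95, but was highest in NPC cells.

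Med31, a small conserved subunit of the middle module, had the highest ΔE of all members. Its total RNA was 12.67, 12.71, 13.52 and 13.04, and its Ago–RNA was 12.22, 14.52, 15.74 and 14.20. The gain from ES to ELA cells lay wholly in Ago–RNA, with ΔE of 2.26, and it was lost in part from NPC to NPC/Neu cells, with ΔE of -1.07. Scaled to the 75th percentile, that loss was -0.89. Med4 and Med9, also of the middle module, had ΔE of 0.95 and 1.26 toward ELA cells and lost toward NPC cells (-1.45 and -1.0). Med1, the subunit bound by nuclear receptors, gave no clear value, as its 4 probes ranged from -0.94 to 0.83 in ES cells.

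In the head module, which holds the initiation complex, Med11 had E of -1.45 in ES and -0.29 in ELA cells (ΔE 1.15). Med6 had E of 0.28, 1.25, 0.69 and -0.35, a peak in ELA cells, and its loss from NPC to NPC/Neu cells was -1.04. Its 2 probes agreed within 0.09 at every stage. Med17, the head subunit with the highest E in ES cells, went from 0.73 to -0.25, just inside the limit (ΔE -0.98). Of the subunits between head and tail, Med30 had E of -0.22, 0.85, 0.84 and -0.63, with ΔE of 1.08 from ES to ELA and -1.47 from NPC to NPC/Neu cells, and Med29 had -1.27 in ES cells and ΔE of 0.90.

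Med28, which lies between head and tail, depended on the probe. Its mean E was -0.01 in ES and 1.12 in ELA cells, with ΔE of 1.13. The probe in coding sequence gave E of 0.14, 2.23, 0.62 and -0.95, and a bright probe in the 3′ UTR gave 0.22, 2.14, 0.84 and -0.25. A dim probe, with total RNA between 7.50 and 8.16 and above background on 7 arrays, gave -0.38, -1.0, -0.30 and 0.00. Without probes that were not well above background, ΔE was 2.01.

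In the kinase module the 4 Med genes had positive E at every stage, although Med12l was near background. Its other genes did not share this, as Cdk19 was positive throughout (0.73, 1.47, 0.76 and 0.77), Cdk8 had 0.42, 0.46, -0.36 and -0.41, and Ccnc had -0.63, -0.17, 0.01 and -0.11. Med12, which activates the module's cyclin-dependent kinase, had total RNA of 9.75, 10.56, 10.95 and 11.70 and Ago–RNA of 11.29, 10.80, 12.05 and 13.25. Total RNA was higher at each later stage, whereas Ago–RNA dipped in ELA cells. E was 1.54, 0.24, 1.10 and 1.55, and ΔE from ES to ELA was -1.30, of which total RNA gave 0.81. Med13, which links the module to core Mediator, had E of 0.43, 0.57, 0.22 and 0.27, and its paralog Med13l had 0.84, 0.75, 1.28 and 0.52.

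**Figure D3:**
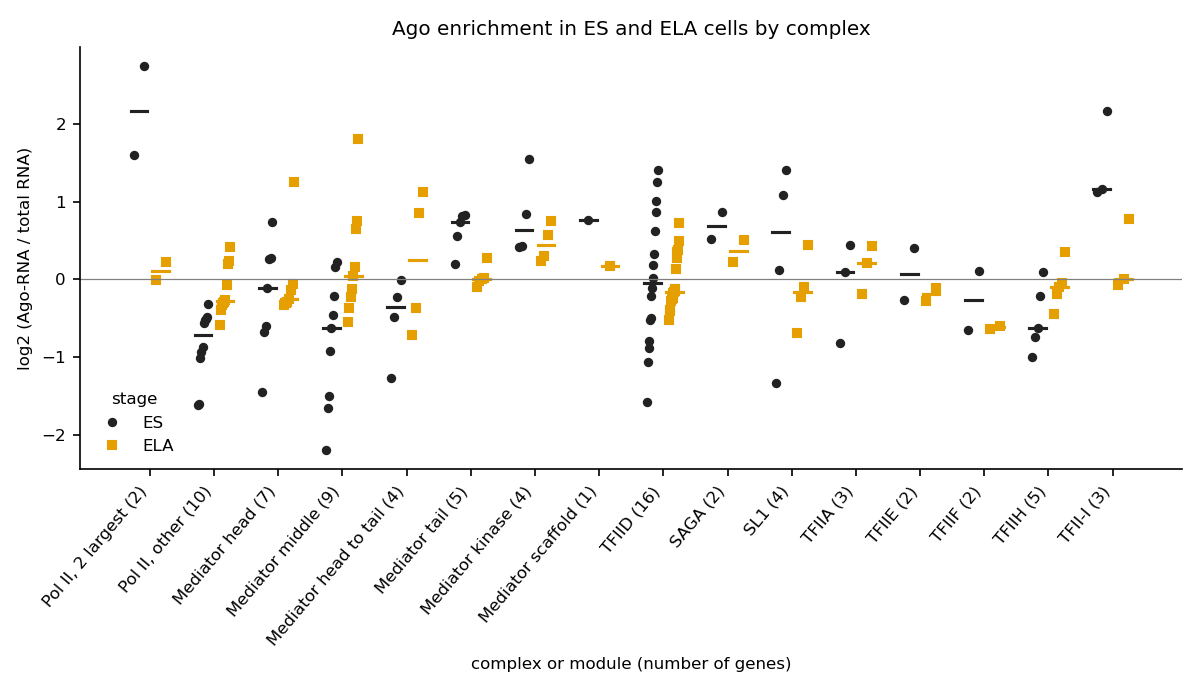
Ago enrichment, log2 (Ago–RNA / total RNA), in ES (black circles) and ELA cells (orange squares) by complex or Mediator module, with 1 point per gene and a bar at the median; Gtf2b and Taf15, alone in their groups, are not drawn. The 3 TFII-I genes and the 2 large polymerase subunits lie above 1 in ES cells, and the middle module has its median at -0.62 in ES and 0.05 in ELA cells.

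The TAFs did not move as a group. Of the 16 genes of TFIID, 8 had positive and 8 negative E in ES cells, and ΔE from ES to ELA was split in the same proportion. The highest in ES cells were Taf4a (E 1.40, 0.72, 1.05 and 0.77), a core scaffold of TFIID, and Taf5 (1.25, 0.14, 0.45 and 0.75), whose ΔE from ES to ELA was -1.12. Taf1, the largest TFIID subunit, had E of 1.01, 0.50, 0.52 and 1.64 and gained 1.12 from NPC to NPC/Neu cells. Of its 3 probes, 1 was dim and above background on 2 arrays, and without it E was 1.63 in ES cells.

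Of the TFIID genes, Taf7l (E -1.58, -0.52, -1.52 and -2.15), a Taf7 paralog known from germ cells and fat, was the lowest in ES cells. Taf9 came next only by its gene mean, which mixes different mRNAs (probes at -0.48 and -1.63). Taf7l gained 1.06 toward ELA and lost 1.01 toward NPC cells. Taf10, shared by TFIID and SAGA, had E of -0.88, 0.35, 1.10 and 0.24, with ΔE of 1.24 from ES to ELA. Its probe in coding sequence also matches Gm4799 and gave E of -0.97 and 0.40 in ES and ELA cells, near the -0.80 and 0.31 of its probe in the 3′ UTR. Of the SL1 genes, which place RNA polymerase I on ribosomal RNA genes, Taf1c (1.40, -0.10, 0.58 and 0.97) and Taf1b (1.09 in ES cells) were high and Taf1d (-1.33, -0.69, -1.70 and -1.94) was low. ΔE was -1.50 for Taf1c from ES to ELA and -1.0 for Taf1d from ELA to NPC cells.

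The value of Taf9 mixes different mRNAs. Its first probe gave E of -0.48, 0.46, 1.54 and 0.41, and the other gave -1.63, -0.94, -1.67 and -1.92. The difference between them reached 3.21 in NPC cells. In the GENCODE annotation the probes lie in transcripts of 2 gene identifiers that are both named Taf9, with coding sequences of 795 and 519 bases that share 0 runs of 30 bases. RefSeq lists Ak6, an adenylate kinase gene, as beginning at the same position as Taf9. Total RNA of the first probe was 15.01 in ES and 14.44 in NPC/Neu cells, and that of the other was 13.24 and 12.33. The gene mean of -1.06 in ES cells, one of the 11 at -1 or lower, does not hold for the first probe.

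Among the general factors, the TFII-I family was the most uniform. Gtf2i encodes TFII-I, a factor that binds initiator and E-box elements, and its total RNA was 12.06, 12.94, 12.87 and 13.18, while its Ago–RNA was 14.22, 13.71, 14.31 and 15.33. Ago–RNA exceeded total RNA at every stage, by 2.16, 0.77, 1.44 and 2.16. Gtf2ird1 (E 1.16, -0.07, 0.31 and 0.58) and Gtf2ird2 (1.12, 0.01, 0.48 and 0.74) lie beside Gtf2i on chromosome 5 (mm9). All 3 were at least 1 in ES cells and lost more than 1 toward ELA cells (ΔE -1.39, -1.23 and -1.12), and the directions held under every other scaling.

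The remaining general factors were lower or mixed. Of the 5 TFIIH core subunits named Gtf2h, 4 had negative E in ES cells (median -0.62), with Gtf2h2 (-1.0) and Gtf2h1 (-0.73) lowest. Gtf2h4 (0.10) was the exception, and 3 of 5 were negative when the 2 kinds of array were normalized apart, 5 of 5 when scaled to the 75th percentile. The helicase subunits of the TFIIH core, Ercc2 and Ercc3, had positive E in ES cells (0.51 and 0.87). TFIIA was split between Gtf2a1 (E 0.45 in ES and 0.42 in ELA cells) and Gtf2a2 (-0.81 and 0.21, ΔE 1.03). The level mean of Gtf2a1 hides 2 probes that moved in opposite directions, with ΔE of 0.48 and -0.52. Gtf2b, the single subunit of TFIIB, which sets the start site, had E of 0.52, -0.41, -0.11 and 0.40. Gtf2f2 of TFIIF had -0.65, -0.63, -1.08 and -0.63.

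Total RNA of the members changed little between neighboring stages. From ES to ELA cells, 73 of 81 members stayed within 0.5 either way (90.1%, against 76.6% of genes well above background). Past the limit of 1 there were 0 increases and 1 decrease (background 3.04% and 3.09%), which was that of Gtf2a1l, a gene not well above background in ELA cells and at least 2.17-fold lower there. From ELA to NPC cells Taf13 rose by 1.5 and Taf7 fell by 1.62 (background 7.13% and 6.62%), and from NPC to NPC/Neu cells only Gtf2h4 fell, by 1.13 (background 3.65% and 2.69%). Of the 78 members well above background, 0%, 2.56% and 1.28% thus passed the limit at the 3 steps, against 7.1%, 17.9% and 8.5% of all genes well above background. The plot of both changes from ES to ELA is therefore tall and narrow.

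**Figure D4:**
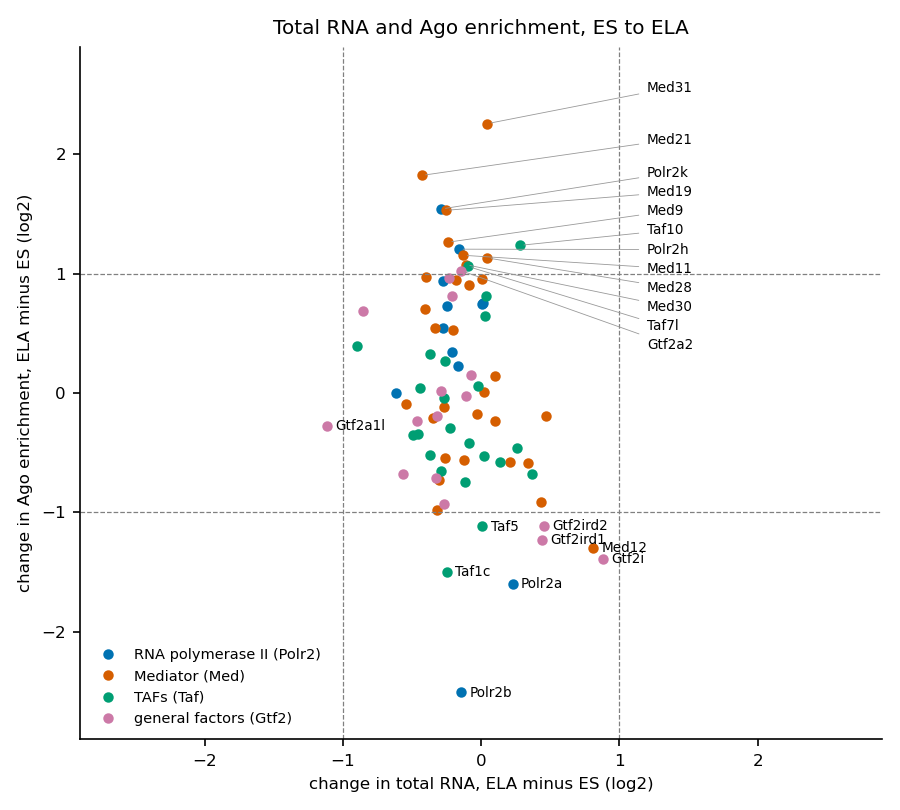
Change in Ago enrichment (vertical axis, log2) against change in total RNA (horizontal axis, log2) from ES to ELA cells, with 1 point per gene colored by family and dashed lines at 1 and -1. The 20 named genes outside the horizontal lines reach from -2.51 (Polr2b) to 2.26 (Med31), while only Gtf2a1l lies outside the vertical lines.

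From the first to the last stage the small changes added up. Between ES and NPC/Neu cells total RNA was lower for 60 of 81 members, with a median of -0.43 against -0.07 for genes well above background. Past the limit, 4 rose and 17 fell (background 11.3% and 11.3%). Among 18441 genes well above background, 2925 rose and 2972 fell past it, 32.0% either way. Scaling to the 75th percentile moved both medians, to -0.84 and -0.26. Taf7, a TFIID subunit that holds back the acetyltransferase activity of Taf1, fell most, with total RNA of 11.28, 11.01, 9.39 and 8.94 and a fall in both of its probes. Its E stayed between -0.61 and -0.11, although in ES cells its probes gave -0.69 and 0.47. Taf13, which pairs with Taf11 in TFIID, had total RNA of 12.70, 11.81, 13.31 and 12.81, lowest in ELA cells.

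Total RNA of the 5 Gtf2h genes of TFIIH was lower in NPC/Neu than in ES cells, and 4 passed the limit, with Gtf2h4 (total RNA 14.59, 14.27, 14.03 and 12.90) at -1.69, Gtf2h1 at -1.62, Gtf2h3 at -1.57 and Gtf2h2 at -1.01. Of the helicase subunits, Ercc3 fell too (-1.05), while Ercc2 was at -0.02. The 10 small polymerase subunits were all lower as well (median -0.79), and Polr2c (-1.15), Polr2e (-1.46), Polr2f (-1.04) and Polr2h (-1.63) passed the limit. The 4 SL1 genes had a median of -1.08, with Taf1a at -1.70 and Taf1d at -1.26. Gtf2a1l was at least 2.54-fold lower. The directions of the Gtf2h, small polymerase subunit and SL1 genes held under every other scaling. The 4 members that rose were Gtf2ird2 (2.05), Med12 (1.95), Gtf2i (1.12) and Med25 (1.00).

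Ago enrichment followed mRNA length among the members as it did on the whole array. In ES cells the Spearman correlation of E with the length of the longest annotated coding transcript was 0.69 across 80 members, against 0.61 across 12492 genes well above background. At the ELA, NPC and NPC/Neu stages it was 0.39, 0.47 and 0.60 (0.38, 0.38 and 0.51 across the genes well above background). With coding length, a measure added after the data were seen, rho was 0.76 in ES cells and -0.70 for ΔE from ES to ELA, against 0.65 and -0.61. All points of a stage come from the same pair of arrays, and these are descriptions across genes.

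The 27 members with the shortest coding sequences (204 to 663 bases) had a median E of -0.62 in ES cells, with 25 below 0, and a median ΔE of 0.90 toward ELA cells, with 24 above 0. The 27 with the longest (1770 to 6579 bases) had a median E of 0.81, with 26 above 0, and a median ΔE of -0.58, with 24 below 0. Of the 12 genes that gained past the limit from ES to ELA cells, 10 were among the shortest and 0 among the longest. Of the 8 that lost, 7 were among the longest, and the other was Taf1c, whose longest annotated transcript has a coding sequence of only 663 bases. Among genes well above background, length bins with medians of 291 to 630 coding bases had median E of -0.67 to -0.36 in ES cells. Bins with medians of 1809 to 5911.5 bases had 0.45 to 1.29. The contrast of large with small polymerase subunits and of tail with middle Mediator subunits thus runs along with length, and their parts cannot be told apart here.

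**Figure D5:**
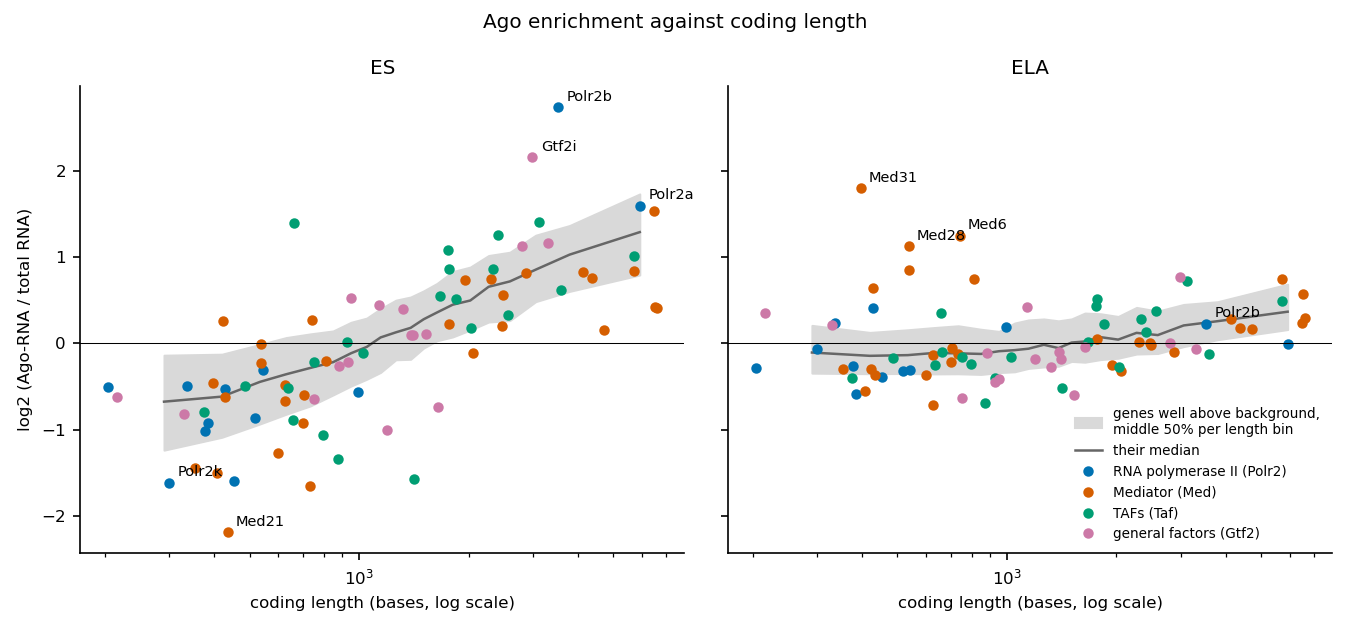
Ago enrichment, log2 (Ago–RNA / total RNA), against coding length (log axis) in ES (left) and ELA cells (right), with 1 point per gene colored by family. The grey line and band are the median and the middle 50% of genes well above background in 20 bins of length; the members climb with the line in ES cells, where Polr2b and Gtf2i lie above the band and Med21 below it, and climb less in ELA cells.

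By thresholds on a binding signal of 7.81 (log2), an enrichment of 2 at one stage and 0.5 at the other, and a change of 1.5, 1 member was released from Ago from ES to ELA cells, Polr2b, and 1 was loaded, Med28, through 2 of its probes. On the whole array 100 genes (0.277%) were released and 68 (0.188%) loaded. Just outside these thresholds lay Gtf2i, with E of 2.16 in ES cells but ΔE of -1.39, and Med31, with ΔE of 2.26 but E of 1.80 in ELA cells. At the later transitions 0 members were released or loaded, where the shares on the whole array were 0.13% and 0.0442% from ELA to NPC and 0.0442% and 0.0553% from NPC to NPC/Neu cells, so that a count of 0 among 81 genes is near the background.

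As partners, 20 other genes of the pathway were examined (TBP and its relatives, the other TFIIH subunits, the kinase module, P-TEFb, DSIF and NELF). Of these, 3 had E of at least 1 in ES cells and 0 of -1 or lower (background 6.56% and 7.34%). The highest was Supt5h (1.44), the large subunit of the elongation factor DSIF, which lost 1.80 toward ELA cells, and the lowest was Tbp (-0.92), which encodes the TATA-binding protein. From ES to ELA cells 0 partners gained and 2 lost past the limit (background 5.14% and 4.41%), Supt5h and Cobra1 (-1.01) of NELF. Of 15 subunits particular to RNA polymerases I and III, 3 had E of at least 1 and 1 of -1 or lower in ES cells (background 6.56% and 7.34%). Polr1b (2.33) was the highest and Polr1d (-1.18) the lowest of the 15. Of their large subunits, Polr1a (ΔE -1.69), Polr1b (-1.46) and Polr3b (-1.26) lost past the limit toward ELA cells, while Polr3a, the counterpart of Polr2a in RNA polymerase III, had E of 0.70 in ES cells and ΔE of -0.78, inside it. In total RNA from ELA to NPC cells, 4 of these 15 fell and 1 rose past the limit (background 6.62% and 7.13%), and 0 of the 12 Polr2 genes did so. Of genes well above background, 17.9% passed the limit either way at this step.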

How the data were processed

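Total RNA and Ago–RNA were hybridized to Agilent one-color mouse arrays. The authors deposited spot intensity as written by the scanner software, with no normalization between arrays. The labels name Feature Extraction 9.1, the file headers 10.7.3.1. Mean and local background intensity were corrected with normexp (offset 50, limma 3.58.1, R 4.3.3), irregular spots (125 to 523 per array) were dropped, the log2 signals of the 8 arrays were quantile normalized, and spots of a probe were averaged. A gene is the mean of its probes. Background correction and normalization were tested on simulated arrays with known changes. Those arrays did not model a difference in signal distribution between Ago–RNA and total RNA. The binding threshold was fitted with mclust 6.1.1. Other values were computed with Python 3.11.15, pandas 2.3.3 and scipy 1.17.1. Probes were matched to GENCODE transcripts of mm9, which placed 97 of 116 by their center (58 in a 3′ UTR, 38 in coding sequence, 1 in a 5′ UTR). RefSeq names are from GRCm38.p6.

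The members and lists were chosen with earlier results of these data known. Named are the 4 genes of each prefix with the highest and the lowest E in ES cells, genes past 1 in ΔE or total RNA at a transition, genes whose probes differ by over 1 in ES cells, 14 genes of known role and genes near background, and further genes after their values were seen. Alternatives were offsets of 16 and 0, the processed signal (quantile normalized, or scaled to its 75th percentile), separate normalization of each kind of array, probes well above background, and the brightest probe.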

Additional observations from a re-analysis of the deposited data

How the results depend on the processing

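No paired analysis was possible because each group holds 1 array. For the same reason no replicate could be left out, and brightness above background limits what can be measured for Gtf2a1l, Med12l and Taf4b. The 84 values of named genes past the fold limit kept their direction under each alternative that could give them (82 with only probes well above background), and 73 to 83 of the 84 stayed past it under the others. Of the 20 members past the limit in ΔE from ES to ELA cells, 19 (processed signal, quantile normalized, without Med28 at 0.89) to 20 remained. Of the 5 from ELA to NPC and the 5 from NPC to NPC/Neu cells, as few as 2 and 2 remained when scaled to the 75th percentile.

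Counts and medians that moved were as follows. With an offset of 0, 8 members in place of 5 passed the limit in ΔE from NPC to NPC/Neu cells. With the processed signal quantile normalized, 2, 7 and 2 members passed in total RNA at the 3 transitions, in place of 1, 2 and 1. Scaled to the 75th percentile, these were 4, 5 and 3, the median E in ES cells was -0.25, and 5 members passed in E in ELA cells in place of 3. That scaling moved the median E of all genes well above background in ES cells to -0.27. Normalizing Ago–RNA and total RNA arrays apart gave median E of 0.28, 0.35, 0.35 and 0.37 at the 4 stages, with 8 members past the limit in ELA cells, and moved the median of genes well above background in ES cells to 0.20. With only probes well above background, 0 members passed in total RNA from ES to ELA cells. With the brightest probe, rho with transcript length was 0.27 in ELA and 0.36 in NPC cells, 2 members passed in total RNA from ES to ELA, and 8 in ΔE from ELA to NPC cells. The cause was not tested.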

Other observations

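The words that miRNA seeds pair with were counted in the 3′ UTR of the longest annotated transcript of each gene, for a miRNA of ES cells, 1 of differentiated cells and 1 of neural cells. The mature sequences are from RefSeq, with the seed (bases 2 to 8) in capitals.
mmu-miR-294-3p: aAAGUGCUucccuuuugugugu
mmu-let-7a-5p: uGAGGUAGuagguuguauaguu
mmu-miR-9-5p: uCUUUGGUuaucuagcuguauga
The word AGCACTT, which pairs with the seed of mmu-miR-294-3p, was found in 10 of 80 members (12.5%), against 15.5% of genes well above background. Among the 11 members with E of at least 1 in ES cells only Taf1 held it, and 0 of the 11 at -1 or lower did. The word CTACCTC of mmu-let-7a-5p was in 5 of 80 members (6.25%, against 9.69%), and the word ACCAAAG of mmu-miR-9-5p in 6 of 80 (7.5%, against 12.7%). The members' 3′ UTRs had a median length of 669 bases, against 1030 bases for genes well above background. Words were searched on the mRNA strand only, and a match is a description of the sequence, not a site.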
